A study of Homo sapiens with 40 samples.

Results

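The genes described are 9 genes of replacement histone variants, chosen by name out of 22069 genes on the arrays, and all 9 were measured. They are the linker histone gene H1FX (ENSG00000184897_at), the H2A variant genes H2AFZ (ENSG00000164032_at), H2AFV (ENSG00000105968_at), H2AFX (ENSG00000188486_at), H2AFY (ENSG00000113648_at) and H2AFJ (ENSG00000246705_at), and the H3 variant genes H3F3A (ENSG00000163041_at), H3F3B (ENSG00000132475_at) and CENPA (ENSG00000115163_at). Replacement variants differ from the canonical histones, whose genes lie in clusters, are switched on for S-phase and give mRNAs without a poly(A) tail. Most replacement variant genes stand alone, give polyadenylated mRNAs and can be used outside S-phase, so that their proteins are put into chromatin independently of DNA replication. CENPA is an exception in timing, since its mRNA accumulates in G2 phase.

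The study asked how normal and tumor cells respond when CASP8AP2, NPAT or HINFP, regulators of canonical histone gene expression, are depleted. In its ChIP-seq results the paper also reports H1FX as a gene regulated by HINFP. U2OS is an osteosarcoma line and hTERT-RPE1 is a retinal pigment epithelial line immortalized with telomerase. Cells received pooled siRNAs at 15 nM, either a control pool or a pool against 1 of the 3 genes, and total RNA was profiled on 40 Affymetrix Human WT arrays in 16 groups. On days 1 and 2 after transfection each line had a control and a CASP8AP2 siRNA group (n = 3 per group, 24 arrays), and on day 3 each line had control, CASP8AP2, NPAT and HINFP siRNA groups (n = 2 per group, 16 arrays). Each gene was targeted with a single pool, and per the methods both day 3 replicates of a group came from simultaneous transfections, so their spread leaves out variation between separate experiments.

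All values are log2 intensities as deposited, and a difference of 1 is a 2-fold change. A gene was called where limma gave a Benjamini-Hochberg adjusted p under 0.05 over all 22069 genes. Intensities of different probe sets cannot be ranked against each other, so each gene is compared only with itself. The sets of days 1 and 2 (together) and of day 3 were taken as normalized separately, and no level was compared across these sets. RNA came from whole cultures, so a smaller share of cells in a given phase and less RNA per cell cannot be told apart.

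The sequences upstream of H1FX and CENPA are shown because H1FX fell with HINFP siRNA in both lines and CENPA was the variant gene most often called. Capitals mark letters of motifs searched on both strands, which were GTCCGC (core of the HINFP site), the CCAAT box, the TATA box TATAAA, the E2F-like motifs TTTGGCGC and also TTTCGCGC, and TTTGAA (the CHR element of genes expressed in G2 phase). Each run holds the 250 bases before the RefSeq start site in GRCh38.p14. H1FX lies on the minus strand (chr3:129316287-129316536) and CENPA on the plus strand (chr2:26785806-26786055).
H1FX: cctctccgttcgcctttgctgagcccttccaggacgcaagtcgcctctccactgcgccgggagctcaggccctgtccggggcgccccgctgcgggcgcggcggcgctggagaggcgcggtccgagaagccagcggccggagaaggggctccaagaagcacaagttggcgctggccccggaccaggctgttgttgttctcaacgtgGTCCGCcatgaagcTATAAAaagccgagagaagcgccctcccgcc
CENPA: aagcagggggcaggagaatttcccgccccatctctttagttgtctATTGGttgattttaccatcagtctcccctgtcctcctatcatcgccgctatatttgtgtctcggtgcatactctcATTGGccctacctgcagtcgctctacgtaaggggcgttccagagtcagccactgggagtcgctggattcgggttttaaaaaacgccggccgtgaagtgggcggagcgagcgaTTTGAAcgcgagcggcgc
In the H1FX sequence GTCCGC begins at -45 and TATAAA at -31 from the start site. In the CENPA sequence CCAAT is read on the opposite strand (as ATTGG) at -205 and -130, and TTTGAA begins at -18. A further GTCCGC on the opposite strand of CENPA begins at -2 and runs past the start site, so it is not within the bases printed.

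Such matches are common. The searched windows ran from 250 bases before to 50 bases after the start site, past the bases printed. Of 35116 such RefSeq windows, 12.8% held GTCCGC, 34.6% held CCAAT, 11.5% held TATAAA and 15.2% held TTTGAA, while 0.652% held TTTGGCGC and 0.515% held TTTCGCGC. Among the 9 variant genes GTCCGC was also in 1 of the 2 windows of H2AFY and in 2 of the 4 windows of H3F3A. CCAAT was in at least 1 window of 8 of the 9 genes, all except H1FX. TTTGAA was also in the windows of H2AFZ and H2AFX, and TATAAA in those of H2AFZ, H2AFX and H3F3B. A match is a description of letters and does not show binding.

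The siRNAs lowered their own targets. CASP8AP2 with its siRNA stood at 30.1% to 59.1% of control over the 5 comparisons, NPAT at 40.3% in hTERT-RPE1 and 33.3% in U2OS cells, and HINFP at 48.4% and 32.0%. Each target fell further in U2OS cells. On days 1, 2 and 3 CASP8AP2 group means went from 7.59 to 6.74, 7.56 to 6.80 and 7.49 to 6.72 in hTERT-RPE1 cells. In U2OS cells they went from 6.76 to 5.46, 6.99 to 5.26 and 6.81 to 5.64. Of 20 marker genes of retinal pigment epithelium and of bone-forming cells, 5 could be matched to a symbol. The epithelial markers BEST1 and RLBP1 were between 3.55 and 4.28 as control group means in both lines. The bone matrix genes IBSP and COL1A2 were between 3.47 and 4.49. These 4 read below the median level of all genes, 5.61 on days 1 and 2 and 5.37 on day 3. The osteoblast regulator RUNX2 was lower in U2OS than in hTERT-RPE1 cells, with differences of -2.23, -1.82 and -1.80 (limma adjusted p = 3.74e-06 or lower), and IBSP was lower on days 1 and 2 (-0.44 and -0.24, adjusted p = 0.000508 and 0.0413). RLBP1 was lower in U2OS cells on day 3 (-0.23, adjusted p = 0.0385). RUNX2 read above the median level of all genes. Its control group means on days 1, 2 and 3 were 9.57, 9.61 and 9.67 in hTERT-RPE1 and 7.34, 7.79 and 7.87 in U2OS cells. This osteoblast regulator was thus higher in the epithelial line, and the other markers read low. These markers did not settle the tissues the lines came from. On hTERT-RPE1 control replicate 1 of day 2, H2AFZ, H2AFX and H1FX read above the other replicates, and results that turn on this array are given with and without it. The array was singled out by these genes, so calls of theirs gained by leaving it out are not independent of that choice.

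Over the 10 comparisons of siRNA with control, 0 to 4 of the 9 variant genes were called. In hTERT-RPE1 cells with CASP8AP2 siRNA, 0 were called on day 1 against 0.793% of all genes, 2 on day 2 (H3F3B and CENPA) against 6.4%, and 1 on day 3 (CENPA) against 6.15%. With NPAT siRNA 0 were called against 5.04%, and with HINFP siRNA 2 were called (H1FX and CENPA) against 4.15%. At an unadjusted limma p under 0.05 there was 1 on day 1 (CENPA), and there were 2 with NPAT siRNA (H1FX and H2AFJ). In U2OS cells with CASP8AP2 siRNA, 2 were called on day 1 against 5.87%, 4 on day 2 against 24.9%, and 3 on day 3 against 18.9%. With NPAT siRNA 1 was called against 8.13%, and with HINFP siRNA 4 were called against 9.43%. The calls under HINFP siRNA in U2OS cells were H1FX, H2AFV and CENPA, which fell, and H2AFJ, which rose.

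**Figure D1:**
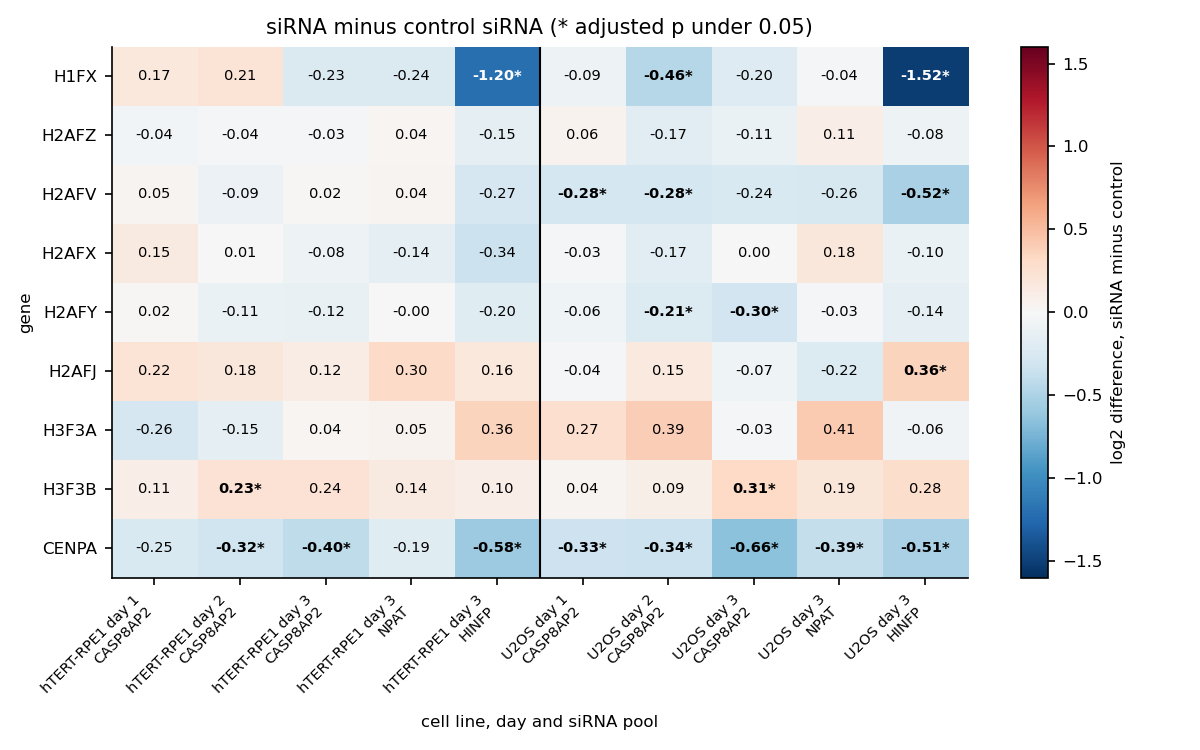
Log2 difference between siRNA and control siRNA for the 9 variant genes (rows) in the 10 comparisons of cell line, day and siRNA pool (columns), with colour from blue (lower) to red (higher) and a star where the adjusted p was under 0.05. The values beyond 1 in size are those of H1FX with HINFP siRNA in both lines, and CENPA is below 0 in every column.

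Linker histones bind the DNA that enters and leaves the nucleosome. H1FX encodes H1X, a widely expressed linker variant. Its differences with HINFP siRNA were the largest siRNA differences of the 9 genes in each line.

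H1FX fell with HINFP siRNA in both lines. On day 3 the hTERT-RPE1 arrays read 8.22 and 8.19 with control, 7.94 and 8.01 with CASP8AP2, 8.06 and 7.88 with NPAT and 6.95 and 7.05 with HINFP siRNA. The U2OS arrays read 8.41 and 8.46 with control, 8.16 and 8.31 with CASP8AP2, 8.37 and 8.43 with NPAT and 7.03 and 6.79 with HINFP siRNA. In each line the HINFP arrays lay below all 6 others. The difference from control was -1.20 ± 0.10 in hTERT-RPE1 cells (limma adjusted p = 4.47e-05), to 43.5% of control, and -1.52 ± 0.10 in U2OS cells (adjusted p = 1.57e-06), to 34.8%. The effect in U2OS minus that in hTERT-RPE1 cells was -0.32 (95% confidence interval -0.63 to -0.02), which did not pass over all genes (adjusted p = 0.255).

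HINFP siRNA was also set directly against the other pools on day 3, in 4 comparisons that share the HINFP arrays of each line, and H1FX was lower with HINFP siRNA in all 4. The difference from CASP8AP2 siRNA was -0.97 ± 0.10 in hTERT-RPE1 (limma adjusted p = 0.000108) and -1.32 ± 0.10 in U2OS cells (adjusted p = 1.74e-05), and that from NPAT siRNA was -0.97 ± 0.10 (adjusted p = 0.000271) and -1.49 ± 0.10 (adjusted p = 4.28e-06). All of these H1FX calls with HINFP siRNA held under every alternative run. With CASP8AP2 and NPAT siRNA on day 3 the differences from control were between -0.24 and -0.04, and none was called.

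On day 2 H1FX went apart between the lines. The U2OS arrays read 8.82, 8.69 and 8.81 with control and 8.34, 8.25 and 8.36 with CASP8AP2 siRNA, a difference of -0.46 ± 0.09 (limma adjusted p = 0.000461). The hTERT-RPE1 arrays read 8.18, 7.87 and 7.69 with control and 8.09, 8.17 and 8.13 with CASP8AP2 siRNA, and these overlapped. The difference of 0.21 ± 0.09 in hTERT-RPE1 cells was not called (adjusted p = 0.182), but without control replicate 1 it was 0.35 and was called (adjusted p = 0.00538). Subtracting the hTERT-RPE1 effect from the U2OS effect gave -0.67 ± 0.13 (adjusted p = 0.00111) and was called in every alternative, with and without that array. On day 1 neither line showed a called difference (0.17 and -0.09).

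**Figure D2:**
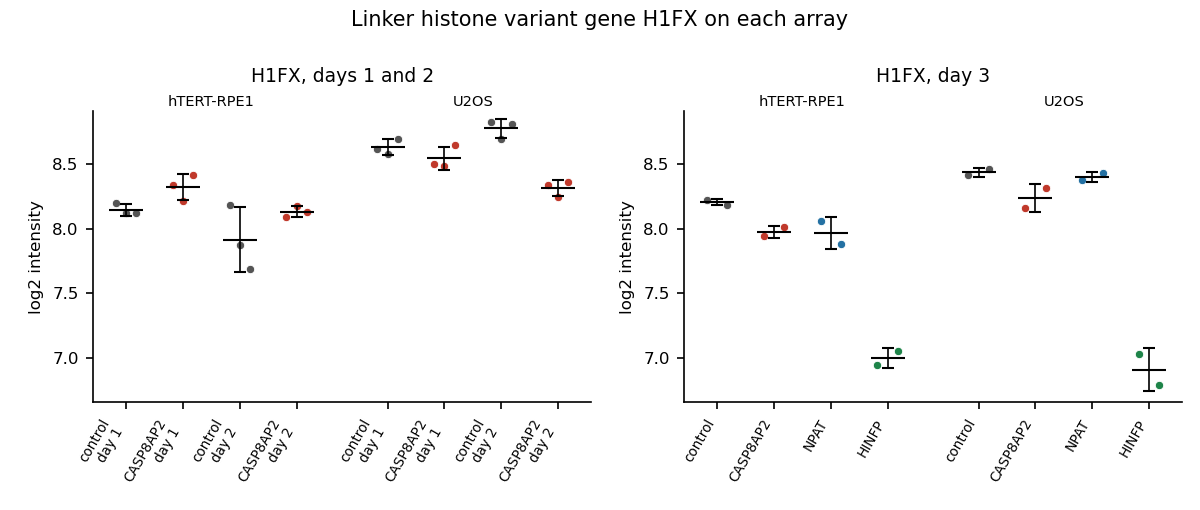
Log2 intensity of H1FX on each array (points) by cell line and siRNA, with days 1 and 2 on the left and day 3 on the right, and the mean and SD of each group in black. The HINFP siRNA arrays of both lines sit between 6.79 and 7.05, below all other arrays of day 3.

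CENPA encodes the H3 variant that marks centromeres and on which kinetochores assemble. Its differences from control were below 0 in 10 of 10 comparisons, with no overlap of the siRNA and control arrays in any of them, and 8 were called. The day 3 comparisons of each line share its control arrays and are not independent of each other. Lack of overlap was frequent, in 4 to 6 of the 9 variant genes per siRNA comparison on day 3 (2 arrays a group). On days 1 and 2 (3 arrays a group) it was seen in 4 and 4 in hTERT-RPE1 cells. In U2OS cells on those days it was seen in 2 and 6. The share over all genes was not computed, so lack of overlap is only a description for every gene here. In hTERT-RPE1 cells the arrays of day 2 read 8.99, 9.07 and 8.97 with control and 8.65, 8.76 and 8.67 with CASP8AP2 siRNA, a difference of -0.32 ± 0.06 (limma adjusted p = 0.00263). In U2OS cells they read 9.91, 9.90 and 9.90 with control and 9.57, 9.46 and 9.66 with CASP8AP2 siRNA, a difference of -0.34 ± 0.06 (adjusted p = 0.00027). On day 1 the difference in U2OS cells was -0.33 ± 0.06 (adjusted p = 0.00203), while the difference of -0.25 ± 0.06 in hTERT-RPE1 cells was not called (adjusted p = 0.07). The falls in hTERT-RPE1 cells on day 2 and in U2OS cells on day 1 were not called in a fit of their own 6 arrays (adjusted p = 0.0702 and 0.0625).

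On day 3 CENPA read 8.67 and 8.66 in hTERT-RPE1 cells with control, 8.30 and 8.22 with CASP8AP2, 8.43 and 8.51 with NPAT and 7.96 and 8.22 with HINFP siRNA. In U2OS cells it read 9.76 and 9.57 with control, 9.07 and 8.94 with CASP8AP2, 9.27 and 9.28 with NPAT and 9.24 and 9.06 with HINFP siRNA. The control arrays were the highest of each line. CENPA fell by 0.66 ± 0.11 with CASP8AP2 siRNA in U2OS cells (limma adjusted p = 0.001), to 63.3% of control, and this held under every alternative. The differences with HINFP siRNA were -0.58 ± 0.11 in hTERT-RPE1 (adjusted p = 0.0112) and -0.51 ± 0.11 in U2OS cells (adjusted p = 0.00799).

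Some of these calls rested on single arrays. With HINFP siRNA the call was lost in hTERT-RPE1 cells without HINFP replicate 1 (-0.44, adjusted p = 0.116), and in U2OS cells without control replicate 1 (-0.42, adjusted p = 0.1) or HINFP replicate 2 (-0.43, adjusted p = 0.0941). With CASP8AP2 siRNA in hTERT-RPE1 cells (-0.40 ± 0.11, limma adjusted p = 0.0404) and with NPAT siRNA in U2OS cells (-0.39 ± 0.11, adjusted p = 0.04) leaving out any 1 of the 4 arrays ended the call, with adjusted p from 0.105 to 0.226 and from 0.0596 to 0.304. A fit of the compared arrays alone called neither these 2 nor the HINFP falls (adjusted p from 0.0583 to 0.134). With NPAT siRNA in hTERT-RPE1 cells the difference was -0.19 ± 0.11 (adjusted p = 0.341). No difference between the lines was called for CENPA in any of the 5 effects, which were between -0.26 and 0.06.

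Proliferation markers were set beside CENPA because its mRNA follows the cell cycle. Of 23 markers 7 had a paired symbol (CCNA2, KIF11, MCM3, RRM2, CCNE1, CCNE2 and E2F1). Their mean level per array was 9.65 to 9.70 with control and 9.29 to 9.37 with CASP8AP2 siRNA in U2OS cells on day 2. All except RRM2 were called lower there, against 24.9% of all genes called. In hTERT-RPE1 cells on day 2 the mean level was 9.45 to 9.48 and 9.30 to 9.34. KIF11, MCM3 and CCNE1 fell there (6.4% of all genes called). In U2OS cells with CASP8AP2 siRNA KIF11 and CCNE2 fell on day 1 (5.87%) and CCNA2 and KIF11 on day 3 (18.9%). On day 3 none of the 7 was called with NPAT or HINFP siRNA in U2OS cells, against 8.13% and 9.43% of all genes. The marker means there were 9.51 to 9.52 and 9.36 to 9.39 against 9.47 to 9.53 in controls. These means hide movements in both directions. The differences ran from -0.37 (CCNA2) to 0.27 (CCNE2) with NPAT and from -0.40 (KIF11) to 0.20 (CCNE1) with HINFP siRNA. The group mean of CCNA2 was 10.21 with control, 9.84 with NPAT and 9.87 with HINFP siRNA, and that of KIF11 was 9.58, 9.39 and 9.19. In hTERT-RPE1 cells the marker means of day 3 were 8.97 to 9.04 with control, 8.88 to 8.96 with CASP8AP2, 9.11 to 9.22 with NPAT and 8.58 to 8.82 with HINFP siRNA. There CCNE1 fell with CASP8AP2 siRNA (-0.52, limma adjusted p = 0.0277) and RRM2 rose with NPAT siRNA (0.49, adjusted p = 0.0194). CCNE1 and E2F1 fell with HINFP siRNA (-0.49 and -0.55, adjusted p = 0.0457 and 0.0235). With CASP8AP2, NPAT and HINFP siRNA 6.15%, 5.04% and 4.15% of all genes were called. The mitotic kinesin KIF11 and the cyclin CCNA2 were not called with any of them. The group mean of KIF11 was 9.67 with control, 9.84 with CASP8AP2, 10.10 with NPAT and 9.57 with HINFP siRNA. That of CCNA2 was 9.81, 9.85, 10.09 and 9.69. Both were thus above control with CASP8AP2 and NPAT siRNA, where CENPA was below it. The part of cell cycle distribution in the CENPA differences was not tested.

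CENPA also moved in opposite directions with time in the control cells. In hTERT-RPE1 cells the control arrays read 9.29, 9.40 and 9.43 on day 1 and the day 2 arrays given above were lower, with a difference of -0.37 ± 0.06 (limma adjusted p = 0.000459). In U2OS cells they read 9.43, 9.49 and 9.62 on day 1 and were higher on day 2 by 0.39 ± 0.06 (adjusted p = 0.00018). CENPA was the only variant gene called in these comparisons, 1 of 9 in hTERT-RPE1 cells against 10% of all genes and 1 of 9 in U2OS cells against 13%. Without hTERT-RPE1 control replicate 1 of day 2, H1FX, H2AFX and H2AFZ were called lower on day 2 as well, at -0.37, -0.23 and -0.21 (adjusted p = 0.00284, 0.0227 and 0.0467). That array was singled out because these genes read high on it, so these calls are not separate evidence of a change. CCNA2, KIF11 and RRM2 were lower on day 2 in hTERT-RPE1 cells (-0.22, -0.31 and -0.28), and in U2OS cells MCM3 and E2F1 were higher by 0.22 and 0.20 while CCNE2 was lower (-0.25). Whether these markers account for the CENPA change was not tested.

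H3F3A and H3F3B encode the same protein, H3.3, the H3 variant laid down at active genes and at telomeres outside replication. H3F3B was above control in 10 of 10 comparisons, by 0.04 to 0.31, and 2 of these were called. Again the day 3 comparisons of each line share its control arrays. The U2OS difference of day 2 was called after cyclic loess (0.17, limma adjusted p = 0.0269). Without control replicate 1 of day 3 the hTERT-RPE1 differences with NPAT and HINFP siRNA fell to -0.00 and -0.04. In hTERT-RPE1 cells on day 2 it read 10.63, 10.53 and 10.57 with control and 10.81, 10.79 and 10.83 with CASP8AP2 siRNA, a rise of 0.23 ± 0.06 without overlap (limma adjusted p = 0.014). In U2OS cells on day 3 it read 10.80 and 10.86 with control and 11.20 and 11.08 with CASP8AP2 siRNA, a rise of 0.31 ± 0.10 (adjusted p = 0.0446). The U2OS arrays with NPAT siRNA (11.01 and 11.02) and HINFP siRNA (11.19 and 11.03) were above control too, with differences of 0.19 and 0.28 that were not called (limma adjusted p = 0.31 and 0.107), although the second was with all 40 arrays in the fit (adjusted p = 0.0121).

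Neither H3F3B call was secure. That of day 2 was lost when the arrays were centred on their medians (0.18, limma adjusted p = 0.0626), in a fit of the 6 arrays alone (adjusted p = 0.162), without control replicate 2 (0.21, adjusted p = 0.0568) and without CASP8AP2 replicate 3 (0.22, adjusted p = 0.0617). That of day 3 was lost on centring (0.26, adjusted p = 0.0784), in a fit of the 4 arrays alone (adjusted p = 0.0917) and without any 1 of the 4 arrays (adjusted p from 0.0545 to 0.255).

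H3F3A gave no usable signal. Its values ran from 2.11 to 4.34 in the first set of arrays (days 1 and 2) and from 2.68 to 3.93 in the day 3 set, in a table whose lowest values were 1.82 and 2.28. The SD within a group reached 0.80, and the U2OS control arrays of day 1 alone read 3.45, 2.11 and 2.28. None of its siRNA differences was called (-0.26 to 0.41), with 95% confidence intervals as wide as -1.09 to 0.57. Whether its probes miss the transcript or are shared with copies of the gene was not tested.

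**Figure D3:**
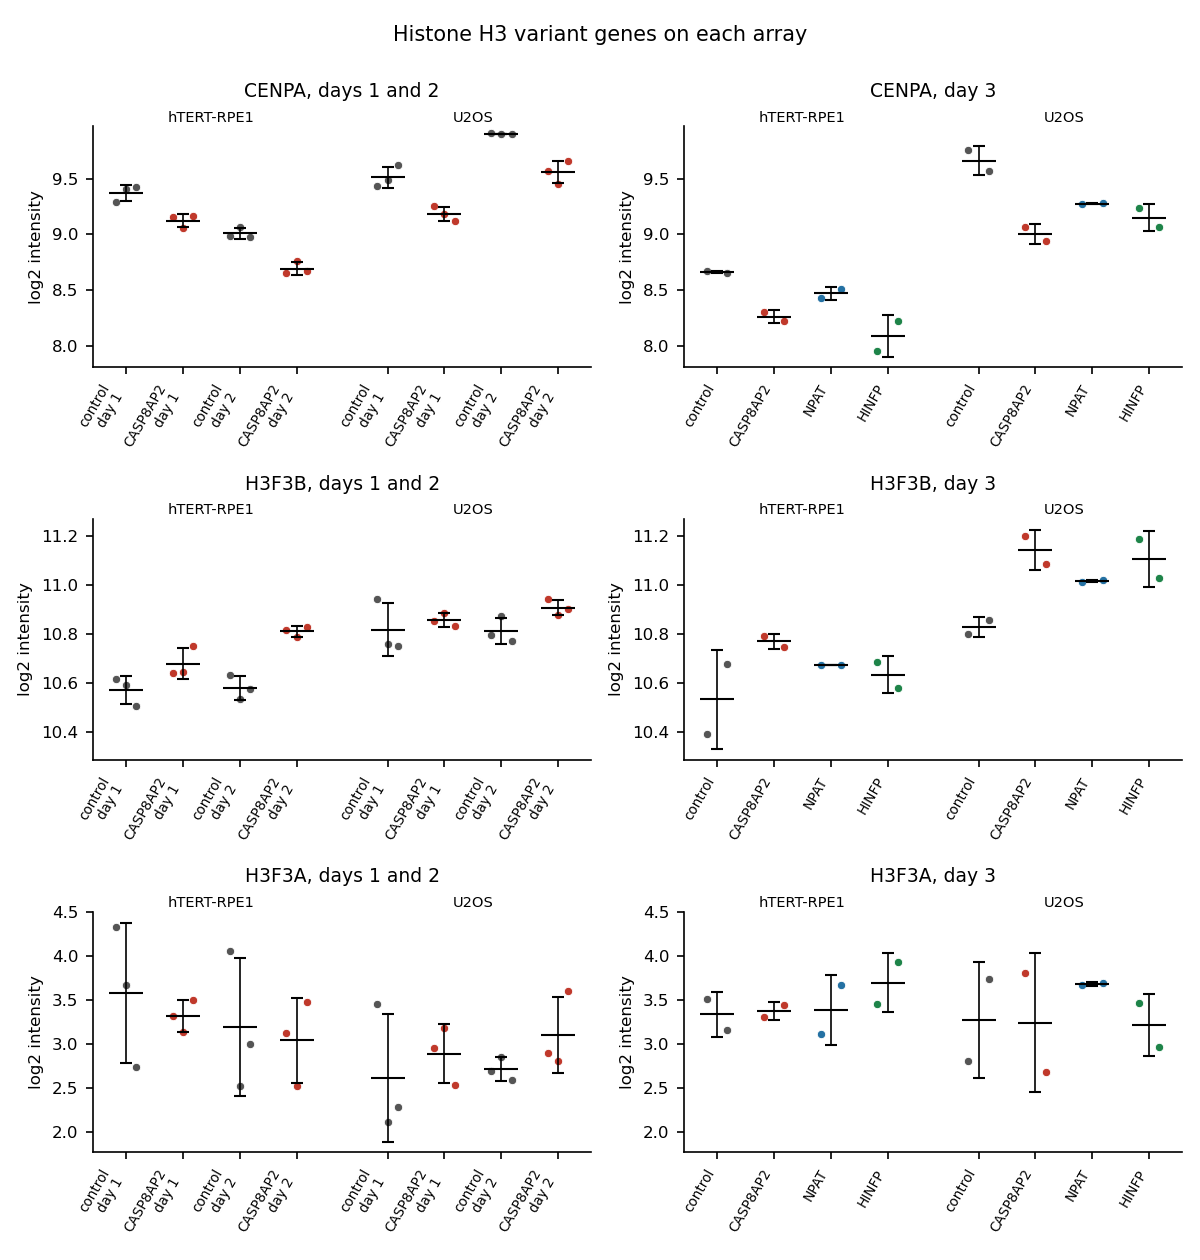
Log2 intensity of CENPA, H3F3B and H3F3A on each array (points) by cell line and siRNA, with the mean and SD of each group in black. CENPA is lower with each siRNA than in the matching control arrays, H3F3B differs by at most 0.31 between siRNA and control means, and H3F3A scatters between 2.11 and 4.34.

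The H2A variants have distinct roles. H2AFZ and H2AFV encode the closely related H2A.Z proteins found at promoters, H2AFX encodes H2AX, which is phosphorylated at DNA breaks, H2AFY encodes macroH2A1, a large variant enriched on silent chromatin, and H2AFJ encodes H2A.J. The siRNA differences of these 5 genes lay between -0.52 and 0.36, and 6 of the 50 were called, all of them in U2OS cells. In the U2OS comparisons 5.87% to 24.9% of all genes were called, against 0.793% to 6.4% in hTERT-RPE1 cells, so the calls fall in the line with more calls over all genes.

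H2AFV gave 3 of the 6 calls. In U2OS cells it read 10.03, 9.96 and 10.04 with control and 9.69, 9.82 and 9.69 with CASP8AP2 siRNA on day 1, and 10.15, 10.13 and 9.96 with control and 9.66, 9.85 and 9.90 with CASP8AP2 siRNA on day 2. The difference was -0.28 ± 0.07 on either day (limma adjusted p = 0.0173 and 0.00475), with no overlap of arrays. On day 3 it read 9.63 and 9.47 with control and 9.12 and 8.95 with HINFP siRNA, a difference of -0.52 ± 0.14 (adjusted p = 0.0346). In hTERT-RPE1 cells the 5 differences were between -0.27 and 0.05 and none was called, but neither was any of the 5 differences between the lines (-0.33 to -0.19, adjusted p of 0.178 or more). The hTERT-RPE1 value of -0.27 with HINFP siRNA was -0.08 without control replicate 1 and -0.47 without control replicate 2, and the matching difference between the lines, -0.24, was -0.44 and -0.04.

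The day 2 call of H2AFV was lost only in a fit of the 6 arrays alone (limma adjusted p = 0.0545). On day 1 it was lost without control replicate 1 or 3 or CASP8AP2 replicate 1 or 3 (-0.27 to -0.26, adjusted p from 0.0633 to 0.0766), in a fit of the 6 arrays alone (adjusted p = 0.0713) and in a fit of all 40 arrays (adjusted p = 0.0683). The HINFP call was lost without any 1 of its 4 arrays (adjusted p from 0.0591 to 0.233), after cyclic loess (adjusted p = 0.0572) and in a fit of the 4 arrays alone (adjusted p = 0.0521).

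H2AFY fell in U2OS cells with CASP8AP2 siRNA on days 2 and 3. On day 2 it read 10.20, 10.14 and 10.25 with control and 10.01, 9.96 and 9.99 with CASP8AP2 siRNA, a difference of -0.21 ± 0.05 (limma adjusted p = 0.00296). On day 3 it read 10.06 and 10.10 with control and 9.68 and 9.87 with CASP8AP2 siRNA, a difference of -0.30 ± 0.10 (adjusted p = 0.0424). The arrays did not overlap on either day. After cyclic loess the differences were -0.14 (adjusted p = 0.0502) and -0.17 (adjusted p = 0.237). The day 3 call was also lost without control replicate 1 (-0.32, adjusted p = 0.13), control replicate 2 (-0.29, adjusted p = 0.167) or CASP8AP2 replicate 1 (-0.20, adjusted p = 0.317), and in a fit of the 4 arrays alone (adjusted p = 0.123).

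H2AFJ was the only H2A variant gene called higher than control with an siRNA. Its signal was low, at 4.51 to 5.13 on day 3, where the median level of all genes was 5.37. In U2OS cells on day 3 it read 4.82 and 4.72 with control, 4.60 and 4.80 with CASP8AP2, 4.59 and 4.51 with NPAT and 5.13 and 5.13 with HINFP siRNA, so that the HINFP arrays were above all others. The rise from control was 0.36 ± 0.09 (limma adjusted p = 0.0297), and it was larger against NPAT siRNA (0.58 ± 0.09, adjusted p = 0.00469) and CASP8AP2 siRNA (0.43 ± 0.09, adjusted p = 0.0204). The rise from control was lost without any 1 of the 4 arrays (adjusted p from 0.0825 to 0.176), after cyclic loess (adjusted p = 0.0718) and in a fit of the 4 arrays alone (adjusted p = 0.0788). That against CASP8AP2 siRNA was lost without CASP8AP2 replicate 1 (0.33, adjusted p = 0.199) or HINFP replicate 1 or 2 (0.43, adjusted p = 0.0846 and 0.103) and in a fit of those 4 arrays (adjusted p = 0.17), and that against NPAT siRNA only in a fit of those 4 arrays (adjusted p = 0.054).

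In hTERT-RPE1 cells H2AFJ read 4.55 and 4.66 with control, 4.97 and 4.84 with NPAT and 4.81 and 4.72 with HINFP siRNA. The differences of 0.30 and 0.16 were not called (limma adjusted p = 0.0918 and 0.385). Subtracting the hTERT-RPE1 effect of NPAT siRNA from the U2OS effect gave -0.52 ± 0.13 (adjusted p = 0.052), and it was called after centring on the median (-0.58, adjusted p = 0.0425), after cyclic loess (-0.63, adjusted p = 0.0409), without dim genes (adjusted p = 0.0451) and with all 40 arrays in the fit (adjusted p = 0.0488). H2AFJ is closely related in sequence to canonical H2A genes, and the files do not list its probes.

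H2AFZ and H2AFX were not called in any of the 10 siRNA comparisons. H2AFZ ranged from 11.13 to 11.59 in the first set of arrays and from 11.04 to 11.57 in the day 3 set, and its siRNA differences lay between -0.17 and 0.11. In U2OS cells on day 2 its difference of -0.17 (95% confidence interval -0.33 to -0.01, limma adjusted p = 0.122) was called on centring (-0.20, adjusted p = 0.0435) and without CASP8AP2 replicate 3 (-0.23, adjusted p = 0.0437). H2AFX read 9.30 and 9.43 with control and 8.97 and 9.07 with HINFP siRNA in hTERT-RPE1 cells on day 3, a difference of -0.34 ± 0.10 that was not called (adjusted p = 0.0674) except with all 40 arrays in the fit (adjusted p = 0.0209). Its other differences lay between -0.17 and 0.18.

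**Figure D4:**
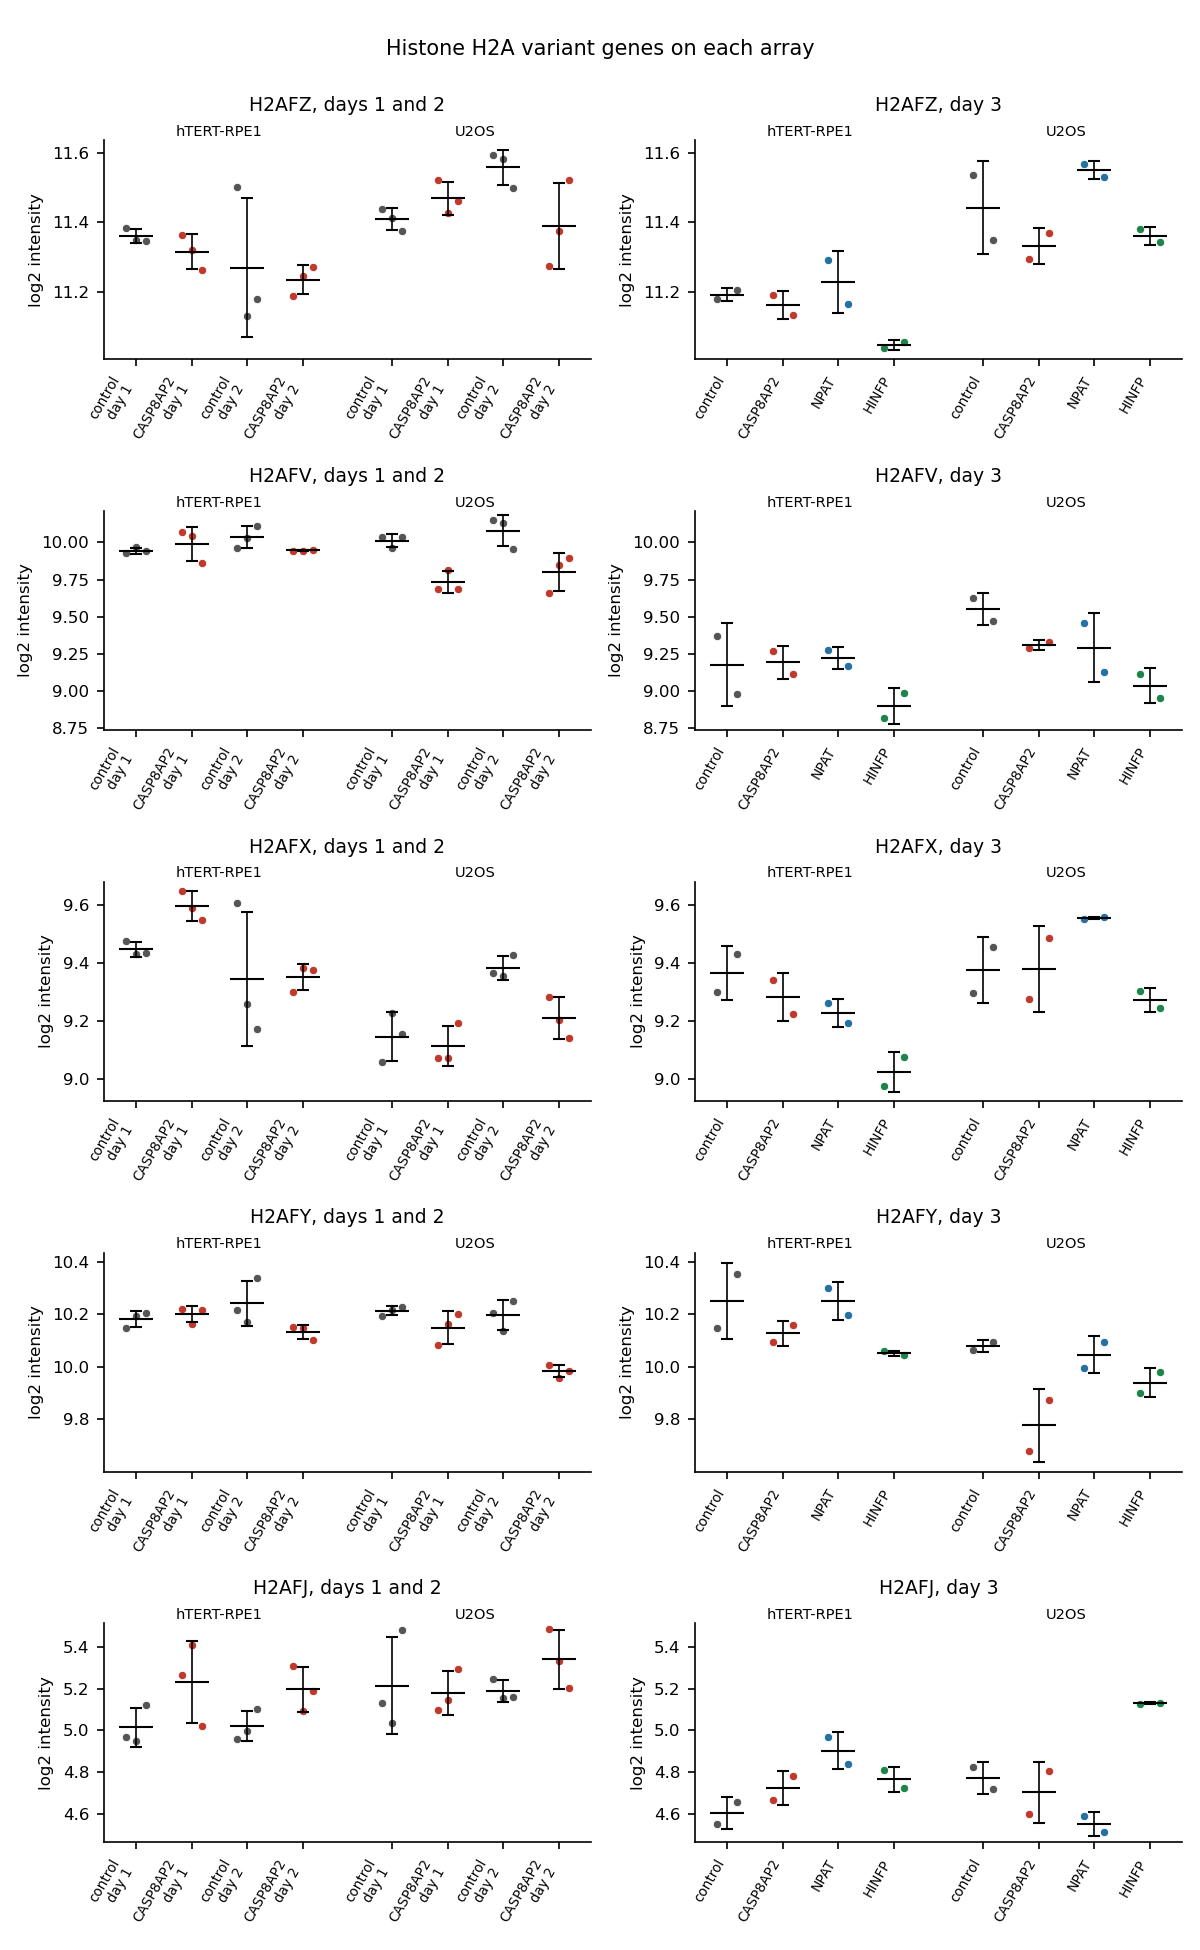
Log2 intensity of the 5 H2A variant genes on each array (points) by cell line and siRNA, with days 1 and 2 on the left and day 3 on the right and the mean and SD of each group in black. H2AFJ with HINFP siRNA in U2OS cells reads 5.13 on both arrays and is the highest group of day 3, and hTERT-RPE1 control replicate 1 of day 2 is above the other 2 replicates for H2AFZ and H2AFX.

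Differences between the lines in their response were tested directly. The siRNAs lowered their own targets less in hTERT-RPE1 cells, and the part of this in the differences was not tested. With CASP8AP2 siRNA 0 variant genes were called on day 1 against 0.689% of all genes, 1 on day 2 (H1FX) against 9.39% and 0 on day 3 against 9.55%. With NPAT siRNA 0 were called against 3.46%, and with HINFP siRNA 0 against 3.15%. At an unadjusted limma p under 0.05 there were 1 on day 1 (H2AFV) and, on day 3, 0 with CASP8AP2, 2 with NPAT (H2AFX and H2AFJ) and 1 with HINFP siRNA (H1FX). Without hTERT-RPE1 control replicate 1 of day 2, H2AFX was called on day 2 as well (-0.31, adjusted p = 0.0224).

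No difference in the CASP8AP2 effect between days 1 and 2 was called, with 0 of 9 in hTERT-RPE1 cells against 0.652% of all genes and 0 of 9 in U2OS cells against 7.04%. At an unadjusted limma p under 0.05 there were 0 and 3 (H1FX, H2AFZ and H2AFY). The H1FX effect in U2OS cells was lower on day 2 than on day 1 (-0.37 ± 0.13, limma adjusted p = 0.0804), and a fit of the 12 arrays alone called it (adjusted p = 0.0363).

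**Figure D5:**
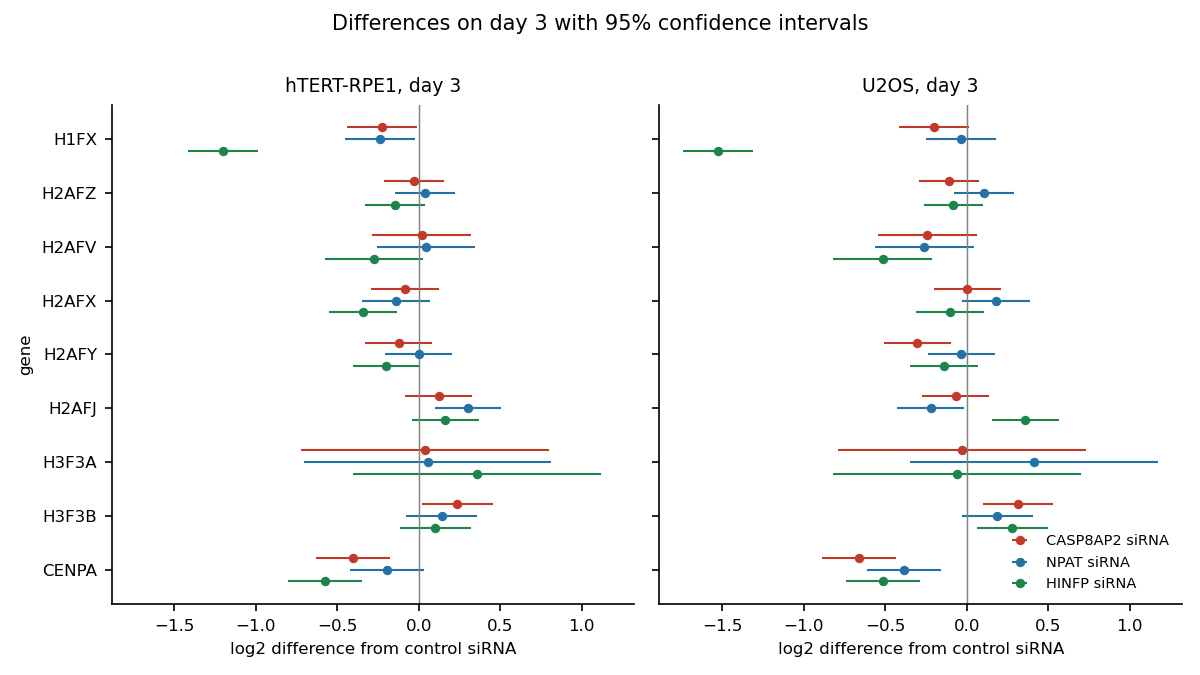
Log2 difference from control siRNA on day 3 (points) with its 95% confidence interval from the limma fit (lines) for the 9 variant genes in hTERT-RPE1 (left) and U2OS cells (right), coloured by siRNA. H1FX with HINFP siRNA lies apart from the other siRNAs in both lines, and the H3F3A intervals are the widest.

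HINFP siRNA against the other pools called 1 variant gene in hTERT-RPE1 cells, against CASP8AP2 (3.81% of all genes called) and against NPAT siRNA (3.63%), and this was H1FX each time. In U2OS cells it called 2 against CASP8AP2 (5.6%) and 2 against NPAT siRNA (4.04%), H1FX and H2AFJ. CENPA was not called in any of the 4 (-0.38 to 0.15). Its difference from NPAT siRNA in hTERT-RPE1 cells, -0.38 ± 0.11 (limma adjusted p = 0.0662), was called without HINFP replicate 2 (-0.51, adjusted p = 0.0449) and with all 40 arrays in the fit (adjusted p = 0.00341).

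With control siRNA the lines differed in many genes, and the variant genes were read against that. U2OS minus hTERT-RPE1 called 3 of the 9 variant genes on day 1 against 48.7% of all genes, 4 on day 2 against 50.8% and 4 on day 3 against 43.8%, shares near or below those of all genes. The day 1 difference of H1FX was 0.48 ± 0.09 (limma adjusted p = 8.55e-05), that of day 2 was 0.86 ± 0.09 (adjusted p = 2.82e-08), and that of day 3, 0.23 ± 0.10, was not called (adjusted p = 0.0749). The day 2 difference of CENPA was 0.89 ± 0.06 (adjusted p = 5.64e-11), the day 3 difference was 1.00 ± 0.11 (adjusted p = 3.53e-06), while its 0.14 ± 0.06 of day 1 was not called (adjusted p = 0.0754) except without U2OS control replicate 1 (0.18, adjusted p = 0.0387).

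Smaller line differences depended on the scale. Centring on the median moved the difference of all genes between the lines by -0.12 on day 1 and -0.16 on day 2. H3F3B was higher in U2OS cells by 0.25, 0.23 and 0.29 (limma adjusted p = 0.000765, 0.00129 and 0.0292), and after centring by 0.12, 0.08 and 0.23, none of them called. H2AFZ was higher by 0.29 on day 2 (adjusted p = 0.00283), but by 0.13 on centring (adjusted p = 0.109), and the day 3 difference was 0.25 (adjusted p = 0.0277). H2AFX was lower in U2OS cells on day 1 (-0.30 ± 0.08, adjusted p = 0.00333) and this held under every alternative. On day 2 the difference of H2AFX was 0.04, and 0.17 without hTERT-RPE1 control replicate 1, when it was called (adjusted p = 0.031).

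The H2AFV difference of 0.38 on day 3 (limma adjusted p = 0.0439) and those of H2AFZ and H3F3B on that day were lost after centring, after cyclic loess and in a fit of the 4 arrays alone. Leaving out an array also ended them, H2AFV without hTERT-RPE1 control replicate 2 (0.18) or either U2OS control (0.30 and 0.45), H2AFZ without either hTERT-RPE1 control (0.24 and 0.27) or U2OS control replicate 1 (0.16), and H3F3B without hTERT-RPE1 control replicate 1 (0.15) or either U2OS control (0.32 and 0.27). H3F3A, which read near the lowest values of the table and gave no usable signal, differed by -0.97 on day 1 (adjusted p = 0.0507). This is not taken as a difference in level, although it was called without hTERT-RPE1 control replicate 3 or U2OS control replicate 1 (-1.39 and -1.38), after centring (-1.09) and with all 40 arrays in the fit. H2AFJ, at 0.20 on day 1, was called without U2OS control replicate 2 (0.29, adjusted p = 0.0428). H2AFY was called lower in U2OS cells on day 2 after centring (-0.20, adjusted p = 0.00225) and on day 3 after cyclic loess (-0.31, adjusted p = 0.0145) or with all 40 arrays (-0.17, adjusted p = 0.0478).

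Chaperones and exchange complexes bring variants to chromatin, and 11 of 74 genes listed for this role had a paired symbol. In U2OS cells with CASP8AP2 siRNA 9 of the 11 fell on day 2, where 24.9% of all genes were called. They included YEATS4 (-0.51) and KAT5 (-0.47), subunits of complexes that place H2A.Z, ANP32E (-0.38), which removes it, RBBP4 (-0.36) and RBBP7 (-0.33), which work in CENP-A loading and in chromatin assembly, and MLF1IP (-0.21), a centromere protein. The others were BAZ1B (-0.24), a kinase for H2AX, NBN (-0.36), of the complex that senses DNA breaks, and CHAF1B (-0.33), a subunit of the assembly factor that follows replication. In hTERT-RPE1 cells with CASP8AP2 siRNA none of the 11 was called on days 1, 2 and 3, against 0.793%, 6.4% and 6.15% of all genes. In U2OS cells none was called on day 1, against 5.87%. At such shares, counts of 0 among 11 genes say little about these factors. The difference between the lines on day 2 was called for 6 (YEATS4, KAT5, ANP32E, RBBP7, BAZ1B and NBN), against 9.39% of all genes. On day 3 in U2OS cells 5 of the 11 fell with CASP8AP2 siRNA (18.9% of all genes called), 1 with NPAT siRNA (8.13%) and 2 with HINFP siRNA (9.43%), NBN among them each time (-0.58, -0.43 and -0.49). In hTERT-RPE1 cells CHAF1B fell with HINFP siRNA (-0.47, limma adjusted p = 0.0237), where 4.15% of all genes were called.

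The patterns of the variant genes were compared over the 40 arrays after each gene's values were centred on their mean within each line and set of days. These correlations are descriptions, since the arrays share controls, treatments and scaling. The paired gene most like H1FX was TXLNA (Pearson's r = 0.86), that most like CENPA was the E2F family gene E2F2 (r = 0.88), and that most like H2AFY was the uracil glycosylase gene UNG (r = 0.82). For the remaining 6 the highest values were between 0.49 (H3F3A) and 0.73 (H3F3B). Among the variant genes themselves r was highest for H1FX with H2AFX (0.63) and lowest for CENPA with H3F3B (-0.59).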

How the data were processed

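RNA of 40 cultures was measured on Affymetrix Human WT 1.1 arrays. The authors used affy from Bioconductor, with probes regrouped by a custom definition into 1 set per Ensembl gene, and the submitters' processing notes name RMA. The deposited log2 intensities of 22069 genes were used as given. The version and genome build of the probe grouping are not given in the sources used here. Array means were 6.00 to 6.05 in the first set (days 1 and 2) and 5.85 to 5.88 in the day 3 set, so a change in total RNA per cell cannot be seen. Depth does not apply to arrays, and their number limits the precision.

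Moderated tests came from limma 3.58.1 under R 4.3.3, by lmFit followed by eBayes at default settings and are two-sided, with 1 fit of 8 groups for each set of arrays (16 residual degrees of freedom on days 1 and 2 and 8 on day 3). The 26 comparisons were adjusted by Benjamini-Hochberg over all genes each, and intervals are at 95% and not adjusted. Replicates are separate samples per the labels. The procedure was tested on simulated data. Alternatives were a fit of only the arrays compared, all 40 arrays in 1 fit, centring on the median, cyclic loess, removal of genes below the 0.25 quantile of mean level, the replicate block, and leaving out each array in turn.

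The variant genes and the gene lists were chosen with earlier results of these data known. The genes named are the 9 variant genes, the targeted genes, called genes of 3 lists (histone variant deposition and exchange factors, proliferation markers, cell type markers) and the genes most alike in pattern. Symbols of listed genes came from the authors' siRNA table, which pairs 1924 of the genes (8.72%) and 1 of the 9 variant genes (H2AFX), and the symbols of the other 8 were given with their identifiers. Promoter sequences are from RefSeq (GRCh38.p14), which held windows for all 9. The rule for the set takes 10 genes, of which 1 is not reported here.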

Additional observations from a re-analysis of the deposited data

Results flagged for a closer look

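The response of H1FX to CASP8AP2 siRNA on day 2 differed by -0.67 between the lines (limma adjusted p = 0.00111). It was called under every alternative. On day 3 the same difference was 0.03 (95% confidence interval -0.28 to 0.33).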

How the results depend on the processing

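Of 234 values of a variant gene in a comparison, 39 were called, 17 of them kept the call under every alternative, and no called value changed sign. The calls kept were 38 of 39 with all 40 arrays in 1 fit, 31 of 39 after centring on the median, 31 of 39 after cyclic loess, 39 of 39 without dim genes and 21 of 39 in fits of only the arrays compared, which have fewer residual degrees of freedom.

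Counts that moved by more than 1.5 times are given here. In those last fits the number of variant genes called went from 2 to 0 in hTERT-RPE1 cells on day 2, from 1 to 0 with CASP8AP2 and from 2 to 1 with HINFP siRNA on day 3, and in U2OS cells from 2 to 0 on day 1 and, on day 3, from 3 to 1 with CASP8AP2, from 1 to 0 with NPAT and from 4 to 1 with HINFP siRNA. The day effect in U2OS cells went from 0 to 1, the control lines on day 3 from 4 to 1, and HINFP against CASP8AP2 and against NPAT siRNA in U2OS cells from 2 to 1 each. Centring gave 1 in hTERT-RPE1 cells on day 2 and 1 between the control lines on day 3. Cyclic loess gave 0 with NPAT and 2 with HINFP siRNA in U2OS cells and 2 between the control lines on day 3. The line difference with NPAT siRNA went from 0 to 1 after centring, after cyclic loess, without dim genes and with all 40 arrays. All 40 arrays gave 2 on day 3 in hTERT-RPE1 cells given CASP8AP2 siRNA (H3F3B added, 0.24, limma adjusted p = 0.0461), 1 in U2OS cells on day 1, 2 for HINFP against NPAT siRNA in hTERT-RPE1 cells and, like the fit without dim genes, 2 for control day 2 minus day 1 in U2OS cells. The causes were not tested.

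Same-numbered replicates had correlated deviations of r from -0.10 to 0.06 on days 1 and 2. On day 3, with 2 replicates a group, r was over 0.1 in 4 of 6 pairs of groups in U2OS cells (-0.02 to 0.17) and in 1 of 6 in hTERT-RPE1 cells (-0.12 to 0.21). Neither the labels nor every pair tied the numbers, so they were not taken to pair samples. With the replicate block 23 of 26 calls were kept, and the counts in hTERT-RPE1 cells on day 2 and in U2OS cells on day 1 each went from 2 to 1. The calls lost were H3F3B in hTERT-RPE1 cells on day 2 (limma adjusted p = 0.0769), H2AFV in U2OS cells on day 1 (adjusted p = 0.0832) and H3F3B with CASP8AP2 siRNA in U2OS cells on day 3 (adjusted p = 0.0597). No paired analysis was possible for control cells between lines or days because the block lies within a line and day.

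Leaving out 1 array gave counts of 0 to 0, 1 to 3, 0 to 0, 0 to 0 and 1 to 2 in hTERT-RPE1 cells (day 1, day 2, and CASP8AP2, NPAT and HINFP siRNA on day 3) and of 1 to 2, 4 to 5, 1 to 2, 0 to 0 and 1 to 2 in U2OS cells. It gave 0 to 0, 1 to 2, 0 to 0, 0 to 0 and 0 to 0 for the line differences in the same order, 0 to 0 for both day effects, 3 to 5, 4 to 5 and 1 to 2 between control lines, 1 to 4 (hTERT-RPE1) and 1 to 1 (U2OS) between control days, and 1 to 1, 1 to 2, 1 to 2 and 2 to 2 for HINFP siRNA against CASP8AP2 and NPAT siRNA in hTERT-RPE1 and then in U2OS cells. On day 3 this leaves 1 array in a group, assumed to vary like the other groups.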
